A study of Homo sapiens with 6 samples.

Results

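The genes for the eukaryotic translation initiation factors (eIFs) were examined in RNA-sequencing of HCT-116 cells, an established human colorectal carcinoma line. Members were taken by symbol from the deposited table, as every entry with a name in the series EIF1 to EIF6. EIF4A3, which works in the exon junction complex, EIF2AK2, a kinase activated by double-stranded RNA, pseudogene symbols and antisense names were left out. This gave 50 of 27918 entries, each a gene or an assembled locus. Of these, 49 had a mean of at least 0.1 FPKM (fragments per kilobase of transcript, scaled to the fragments mapped in the library) over the 6 libraries and entered the test, beside 16028 entries in all. Of the 6 libraries, 3 came from cells transfected with a negative control GapmeR (GapNC) and the other three from cells given a GapmeR against the long noncoding RNA CASC9 (GapC9), both at 10 nM. A GapmeR is a short antisense oligonucleotide that pairs with an RNA and recruits RNase H to cut it. The methods of the study give 48 h from transfection to harvest and its results 24 h. The study speaks of triplicate experiments in general, but no source used here ties the libraries to separate cultures, so the p-values measure only the spread between these libraries, which may be technical. In bulk RNA, fewer cells with a transcript and less of it per cell cannot be told apart.

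Initiation brings the ribosome, the initiator methionyl-tRNA and the mRNA together at a start codon. The eIF2 trimer, reloaded with GTP by the exchange factor eIF2B, carries the initiator tRNA to the small ribosomal subunit, where eIF1, eIF1A, eIF5 and the large eIF3 complex assemble. The eIF4 proteins bind the mRNA cap and unwind the leader, and eIF5B then joins the large subunit. Kinases that phosphorylate eIF2α turn eIF2 into an inhibitor of eIF2B, which is the core of the integrated stress response.

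The libraries were similar in depth. Taking the most frequent step among low values as 1 fragment puts them at 22.9 to 24.2 M (mega) fragments, and the summed FPKM ranged from 152661 to 166816. The FPKM of CASC9 was 0, 0.0108 and 0 in the GapNC libraries (replicates 1, 2 and 3) and 0.0528, 0.107 and 0 in the GapC9 libraries, so the target was near 0 in all libraries and not lower in those labelled GapC9. Every direction below therefore rests on the labels, and GapC9 stands for the libraries labelled so. The study reports lower CASC9 by RT-qPCR in HCT-116 cells given this GapmeR, but no source used here ties that RNA to these libraries. Of the colon epithelial markers, EPCAM was at 62.3 to 88.4 FPKM and KRT8 at 316 to 480.2 FPKM, whereas KRT20, CDX1, VIL1, CDH17 and LGALS4 stayed at or below 0.302 FPKM. The leukocyte markers PTPRC, CD3E, CD14 and ITGAM stayed at or below 0.145 FPKM (CD68 shares an entry with EIF4A1), and the endothelial markers at or below 0.0467 FPKM. Of the fibroblast markers, COL3A1 was at 3.03 to 4.13 FPKM and COL1A1 at 1.06 to 1.54 FPKM, whereas COL1A2 and PDGFRB stayed at or below 0.0858 FPKM. The libraries also differed in their relation to GC content. When each gene's deviation from its mean over the libraries was ranked against its GC content, Spearman's correlation was 0.618 for GapNC replicate 1 and lay between −0.101 and 0.0130 for the other GapNC libraries, against 0.0215, −0.339 and −0.384 for GapC9 replicates 1, 2 and 3. The groups overlapped in this measure, and GapNC replicate 1 and GapC9 replicates 2 and 3 stood at its ends.

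At an adjusted p under 0.05 (limma on log2(FPKM + 0.1), Benjamini-Hochberg over all entries tested), 3 initiation factor genes were higher in GapC9 and 2 were lower. EIF4A2, EIF1B and EIF5B rose between 1.58- and 1.73-fold, and EIF4G3 and EIF2B3 fell to 0.561 and 0.569 of the GapNC mean. These 5 make 10.2% of the 49 members tested, beside 6.99% of all entries. By direction, 6.12% of members were higher, beside 1.89% of all entries, and 4.08% were lower, beside 5.1%. The 3 higher genes were among the 34 members averaging at least 10 FPKM, whereas the 2 lower ones were not, where entries of that level gave 2.19% higher and 4.42% lower. No member met the study's thresholds of a 2-fold difference of means with an unadjusted p under 0.05, which 6.42% of all entries met (2.1% higher and 4.32% lower). An unadjusted p under 0.05 was reached by 9 members that were higher and 6 that were lower, 30.6% of those tested beside 25.9% of all entries (9.09% higher and 16.8% lower). After median scaling this count was 14 and 4, where all entries had 2021 higher and 2126 lower in place of 1457 and 2700. All 3 GapC9 libraries lay above all 3 GapNC libraries for 13 members (26.5%, beside 12.6% of all entries) and below them for 6 (12.2%, beside 21.6%), and the groups overlapped for 30. The 6 wholly below and the 6 lower at an unadjusted p both hold EIF3C and EIF3CL, near-identical copies that share reads. After median scaling the 13 and 6 became 19 and 6, where the entries wholly above and wholly below went from 2022 and 3464 to 2810 and 2770. Among entries with a mean of at least 10 FPKM, 17.4% lay wholly above and 18.5% wholly below, where the 34 members had 12 and 3. The median log2 fold change was 0.10 over the members and −0.08 over all entries tested. Over the members and entries of at least 10 FPKM it was 0.14 and −0.02.

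**Figure D1:**
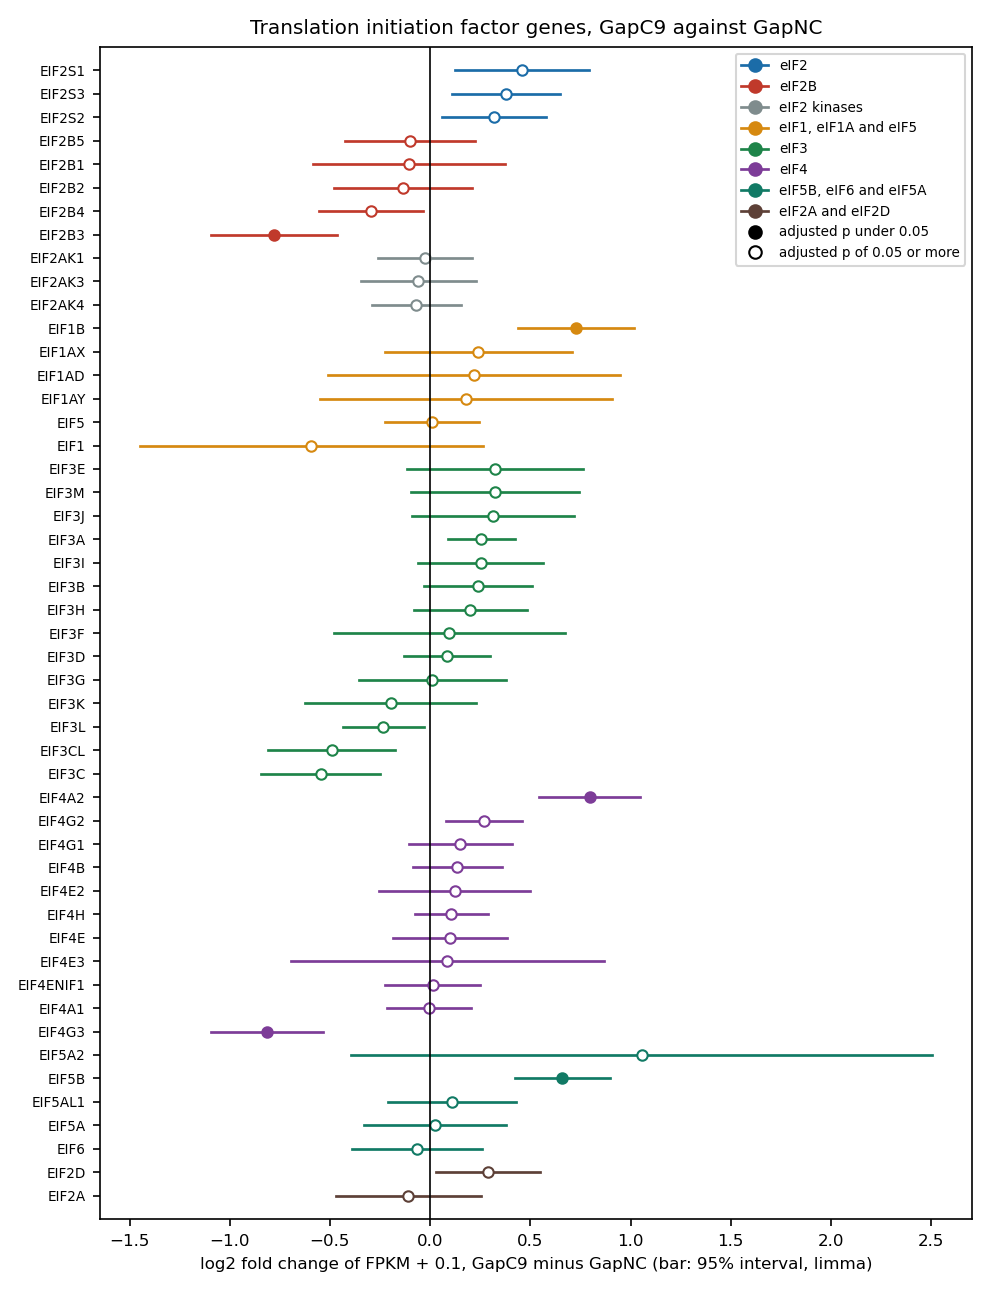
Log2 fold change of FPKM + 0.1 (GapC9 minus GapNC) on the x axis for the 49 members tested, one row each, coloured and ordered by role, with the 95% interval from limma. Filled points mark an adjusted p under 0.05, and these are EIF4A2, EIF1B and EIF5B to the right of 0 and EIF4G3 and EIF2B3 to the left.

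With 1 library fewer the fold changes of the 5 genes moved little, while most adjusted p-values passed above the threshold. Each gene kept its adjusted p under 0.05 when GapNC replicate 1 was left out (0.0324 to 0.0388) and lost it when any 1 of the other five libraries was left out (0.0571 to 0.122, limma). The log2 fold changes in these fits were 0.73 to 0.87 for EIF4A2, 0.64 to 0.78 for EIF1B, 0.61 to 0.69 for EIF5B, −0.85 to −0.75 for EIF4G3 and −0.85 to −0.69 for EIF2B3. In the whole table the same fits made 810 calls without GapNC replicate 1 and 32 to 122 without another library, where 1120 entries passed with all 6. After a correction of each library for GC content, all 5 calls stayed and 10 further members passed, 8 of them higher and 2 lower. The 2 lower were the near-identical EIF3C and EIF3CL. The 15 are 30.6% of the members tested, and under the same correction 14.8% of all entries passed.

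The bases just upstream of the RefSeq starts of these 5 genes are printed here because the 5 were the members called (RefSeq, GRCh38.p14, 5′ to 3′ on the strand of the gene). Each run holds up to 250 bases and was shortened where it ran more than 30 bases into an annotated exon of the gene, so EIF5B has 244 bases and EIF2B3 has 153. Exons were those of the GENCODE v29 basic annotation. The full annotation starts EIF4A2 further upstream, at 186783205, with transcripts of incomplete coding sequence, so the EIF4A2 run lies inside the gene as that annotation spans it. They lie at chr3:186783327-186783576 (EIF4A2, plus strand), chr3:40309457-40309706 (EIF1B, plus strand), chr2:99337139-99337382 (EIF5B, plus strand), chr1:21176898-21177147 (EIF4G3, minus strand) and chr1:44986693-44986845 (EIF2B3, minus strand). Capitals mark a match to 1 of 7 motifs searched on both strands, the TATA box TATAAA, the E-box CACGTG, the GC box GGGCGG, the NRF1 motif (GCGC and TGCGC with any 1 base between them), the CCAAT box, the ETS motif CCGGAAG and the cyclic AMP response element TGACGTCA.
EIF4A2: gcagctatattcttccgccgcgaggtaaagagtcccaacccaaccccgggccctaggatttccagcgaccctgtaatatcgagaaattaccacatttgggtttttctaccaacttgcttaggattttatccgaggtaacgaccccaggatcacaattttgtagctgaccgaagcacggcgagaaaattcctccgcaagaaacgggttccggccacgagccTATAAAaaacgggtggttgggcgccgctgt
EIF1B: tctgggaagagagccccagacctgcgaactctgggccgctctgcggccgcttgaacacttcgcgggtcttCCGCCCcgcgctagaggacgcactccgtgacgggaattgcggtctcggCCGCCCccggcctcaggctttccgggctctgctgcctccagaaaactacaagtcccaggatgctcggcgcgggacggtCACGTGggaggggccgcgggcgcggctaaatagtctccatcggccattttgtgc
EIF5B: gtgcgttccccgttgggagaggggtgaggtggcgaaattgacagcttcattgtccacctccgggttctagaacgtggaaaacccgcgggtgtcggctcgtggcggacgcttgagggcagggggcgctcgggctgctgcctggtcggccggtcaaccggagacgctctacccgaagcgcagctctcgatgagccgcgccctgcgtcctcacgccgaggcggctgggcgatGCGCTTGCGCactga
EIF4G3: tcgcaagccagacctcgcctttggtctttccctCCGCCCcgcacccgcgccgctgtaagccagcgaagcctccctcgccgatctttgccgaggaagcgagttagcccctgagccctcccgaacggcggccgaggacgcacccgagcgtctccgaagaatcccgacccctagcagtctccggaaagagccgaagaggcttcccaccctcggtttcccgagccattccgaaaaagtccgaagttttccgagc
EIF2B3: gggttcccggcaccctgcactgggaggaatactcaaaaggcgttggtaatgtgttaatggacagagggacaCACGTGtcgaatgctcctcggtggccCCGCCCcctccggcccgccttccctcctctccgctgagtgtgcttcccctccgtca
EIF4A2 holds 1 TATA box, EIF1B 1 E-box and 2 GC boxes, EIF5B 1 NRF1 motif, EIF4G3 1 GC box, and EIF2B3 1 E-box and 1 GC box, and no matches overlap. The 3 genes that rose thus share none of the 7 motifs in these runs. The NRF1 motif of EIF5B lies near the end of its run, inside the gene, whose annotated start is 99337353. RefSeq gives EIF4G3 another start, at which none of the 7 was found. Of all 35116 RefSeq windows of 250 bases, 10.7% hold the TATA box, 6.34% the E-box, 42.6% the GC box, 5.07% the NRF1 motif, 32.0% the CCAAT box, 8.52% the ETS motif and 1.65% the cyclic AMP response element. Windows were found for 42 members, 57 windows in all. The TATA box of EIF4A2 was the single one among them (1.75%), 15.8% held the E-box, 15.8% the NRF1 motif, 61.4% the GC box, 36.8% the CCAAT box, 17.5% the ETS motif and 0 the cyclic AMP response element. A match describes the letters and does not show that a factor binds.

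The 3 subunits of eIF2 lay higher in GapC9 in every library, although none passed the adjusted threshold. EIF2S1 encodes eIF2α, the subunit that stress kinases phosphorylate. It was at 30.0, 40.1 and 36.9 FPKM in GapNC replicates 1, 2 and 3 and at 44.9, 52.9 and 48.7 FPKM in GapC9 replicates 1, 2 and 3 (log2 fold change 0.46, SE 0.14, adjusted p = 0.105, limma). EIF2S2, the β subunit, was at 61.7, 76.3 and 71.4 FPKM and then at 82.8, 90.3 and 87.1 FPKM (0.32, SE 0.11, adjusted p = 0.130, limma). For EIF2S3, the γ subunit that binds GTP and the initiator tRNA, the values were 55.1, 55.1 and 67.5 FPKM in GapNC and 73.1, 78.6 and 78.4 FPKM in GapC9 (0.38, SE 0.11, adjusted p = 0.0982, limma). In none of the 3 did the groups overlap, and their summed FPKM was 165 ± 15.6 in GapNC and 212 ± 10.6 in GapC9 (SD, n = 3). All 3 passed the adjusted threshold after the GC correction (adjusted p = 0.0334 to 0.0421, limma), so their call depends on that choice.

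The 5 subunits of eIF2B, by contrast, all had fold changes below 0, and 1 of them passed. Below 0 also lay 9035 of the 16028 entries tested. EIF2B3 encodes eIF2Bγ, part of the catalytic side of the exchange factor, and spans positions 44850522 to 44986722 of chromosome 1 on the minus strand. It was at 3.12, 3.92 and 3.37 FPKM in GapNC replicates 1, 2 and 3 and at 2.02, 1.87 and 2.03 FPKM in GapC9 replicates 1, 2 and 3. Every GapC9 library lay below every GapNC library. The log2 fold change was −0.78 (SE 0.13, adjusted p = 0.0308, limma), with an adjusted p of 0.0553 after quantile normalization. EIF2B4, eIF2Bδ of the regulatory side, was at 10.9, 9.53 and 9.13 FPKM and then at 7.90, 7.87 and 8.18 FPKM, again without overlap (−0.29, SE 0.11, adjusted p = 0.154, limma). EIF2B1, EIF2B2 and EIF2B5, for the α, β and ε subunits, had overlapping groups and log2 fold changes of −0.11, −0.13 and −0.10. After median scaling these were −0.017, −0.044 and −0.0099. Without GapC9 replicate 1 EIF2B1 came to 0.11, and without GapNC replicate 1 EIF2B5 came to 0.00046. EIF2B5, the catalytic subunit proper, came to 0.0033 after the GC correction, where EIF2B3 was at −0.70. EIF2S1 lay wholly higher and EIF2B3 wholly lower in GapC9, so the ratio of EIF2S1 to EIF2B3 within a library had to be higher there. This ratio was 9.62, 10.2 and 11.0 in GapNC and 22.3, 28.3 and 23.97 in GapC9, and is not a separate observation.

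The eIF2α kinases did not differ detectably. EIF2AK1, the kinase known for sensing heme and mitochondrial stress, was the most abundant at 28.1 to 33.3 FPKM. EIF2AK4 (GCN2), which senses uncharged tRNA, lay between 7.89 and 8.81 FPKM, and EIF2AK3 (PERK), the kinase of the endoplasmic reticulum, between 2.29 and 2.70 FPKM. The log2 fold changes were −0.03 (95% interval −0.26 to 0.21), −0.07 (−0.29 to 0.15) and −0.06 (−0.35 to 0.23), in that order, and all 3 groups of values overlapped.

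Among the factors that select the start codon, EIF1B rose and its paralog EIF1 was irregular. EIF1 keeps the scanning ribosome open until a start codon is met, and EIF1B encodes a close paralog. EIF1B, on the plus strand of chromosome 3 from 40309684 to 40312424, was at 10.4, 12.7 and 12.2 FPKM in GapNC replicates 1, 2 and 3 and at 18.6, 18.7 and 21.2 FPKM in GapC9 replicates 1, 2 and 3. The lowest GapC9 library exceeded the highest GapNC library, and the log2 fold change was 0.73 (SE 0.12, adjusted p = 0.0303, limma). Its antisense neighbor EIF1B-AS1 did not exceed 0.133 FPKM in any library. EIF1, at 58.4, 53.6 and 56.3 FPKM in GapNC, was at 27.1 and 28.4 FPKM in GapC9 replicates 1 and 2 but at 66.3 FPKM in replicate 3. GapC9 replicate 3 was thus the highest of all 6 libraries and the other two were the lowest. The log2 fold change of EIF1 was −0.59 (SE 0.35, adjusted p = 0.340, limma), and −1.01 without GapC9 replicate 3 (adjusted p = 0.0633, limma), where EIF1 met the study's fold threshold. The EIF1B to EIF1 ratio was 0.178, 0.236 and 0.217 in GapNC and 0.686, 0.658 and 0.320 in GapC9, so it was higher in every GapC9 library, also in the one with high EIF1.

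The other members of this step overlapped between groups. EIF1AX, the X-linked gene of eIF1A, which works with eIF1 in scanning, was at 24.04, 34.4 and 39.1 FPKM in GapNC and at 35.1, 39.1 and 39.0 FPKM in GapC9. EIF1AY, its Y-linked counterpart, stayed at 0.308 to 0.690 FPKM. EIF5, the GTPase-activating protein of eIF2, was at 21.1, 23.3 and 24.05 FPKM and then at 23.99, 23.0 and 21.7 FPKM (log2 fold change 0.01, 95% interval −0.23 to 0.24). EIF1AD, a nuclear protein with an eIF1A-like domain, ranged from 10.1 to 21.6 FPKM. It overlaps BANF1 on the opposite strand, whose values were 20.0, 16.6 and 58.7 FPKM in GapNC and 42.5, 68.6 and 15.8 FPKM in GapC9. Within GapC9, replicate 3 had the most EIF1AD and the least BANF1 and replicate 2 the reverse, and the part of the overlap in this was not tested.

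None of the 14 eIF3 genes passed the adjusted threshold, although their values split in direction. The complex is a scaffold on the small subunit that recruits the mRNA. EIF3A, its largest subunit, was at 119, 123 and 119 FPKM in GapNC and at 145, 145 and 142 FPKM in GapC9 replicates 1, 2 and 3 (log2 fold change 0.26, SE 0.07, adjusted p = 0.0823, limma). Its replicates lay close together and did not overlap between groups. EIF3C, a core subunit whose entry also carries the name NPIPB9, was at 31.2, 26.2 and 24.3 FPKM and then at 19.6, 18.2 and 17.8 FPKM (−0.55, SE 0.12, adjusted p = 0.0538, limma). EIF3CL was at 28.6, 23.8 and 22.3 FPKM and then at 19.1, 16.3 and 17.4 FPKM (−0.49, SE 0.13, adjusted p = 0.0790, limma). Both lay wholly lower in GapC9, and EIF3C passed where only entries of at least 1 FPKM were tested (adjusted p = 0.0444, limma). EIF3C and EIF3CL are near-identical copies on chromosome 16 that share reads, their ratio stayed at 1.03 to 1.11 in all libraries, and how the fragments were divided between them is uncertain, so they do not count as separate observations. EIF3L, a peripheral subunit in an entry joined with AL022311.1, was at 17.2, 17.1 and 17.6 FPKM and then at 14.4, 14.9 and 14.9 FPKM, also without overlap (−0.23, SE 0.08, adjusted p = 0.149, limma).

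EIF3I, a small core-bound subunit and the most abundant of the complex, was at 183, 169 and 135 FPKM in GapNC and at 193, 195 and 187 FPKM in GapC9. All GapC9 libraries lay above GapNC, by a log2 fold change of 0.25 (95% interval −0.06 to 0.56). EIF3J, a loosely bound subunit, also did not overlap (0.32, 95% interval −0.09 to 0.72). The remaining members, EIF3B, EIF3D, EIF3E, EIF3F, EIF3G, EIF3H, EIF3K and EIF3M, had overlapping groups and log2 fold changes from −0.20 (EIF3K) to 0.32 (EIF3E and EIF3M). For EIF3E and EIF3M, GapNC replicate 1 was the lowest library, at 74.6 and 19.8 FPKM beside 109 and 27.2 FPKM in GapNC replicate 2. It was also the lowest for EIF3A, EIF3H and EIF3J (118.7, 40.9 and 19.7 FPKM). Outside this complex it was the lowest for further members, among them EIF1AX, EIF2S1 and EIF2A. The called genes EIF4A2, EIF1B and EIF5B, all higher in GapC9, were also lowest in GapNC replicate 1. After the GC correction EIF3B, EIF3D and EIF3G passed as higher and EIF3C and EIF3CL as lower. Summed over the 14 genes, FPKM was 746 ± 33.0 in GapNC and 830.0 ± 5.45 in GapC9 (SD, n = 3), with no GapC9 library below 824. The abundant EIF3I, EIF3A and EIF3E weigh most in this sum, which does not show that the subunits rose together, as EIF3C, EIF3CL and EIF3L lay wholly lower.

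The cap-binding group held the largest rise and the largest fall among the 5 called genes, in different paralogs of its helicase and its scaffold. EIF4A1 and EIF4A2 encode the DEAD-box helicases that unwind mRNA leaders. EIF4A2, on the plus strand of chromosome 3 from 186783205 to 186789900, was at 42.8, 52.1 and 46.1 FPKM in GapNC replicates 1, 2 and 3 and at 77.5, 84.5 and 82.6 FPKM in GapC9 replicates 1, 2 and 3. The groups were far apart, with a log2 fold change of 0.80 (SE 0.10, 95% interval 0.55 to 1.05, adjusted p = 0.0193, limma). The gene hosts several small nucleolar RNAs in its introns and overlaps RFC4 on the opposite strand, which lay between 8.24 and 9.55 FPKM in all libraries. EIF4A1 did not differ detectably, at 55.7, 50.3 and 50.2 FPKM and then at 53.3, 52.3 and 49.8 FPKM (−0.01, 95% interval −0.22 to 0.21). Its entry also carries the names TNFSF12, TNFSF13, SENP3 and CD68, so the value may not be of EIF4A1 alone. The EIF4A2 to EIF4A1 ratio was 0.768, 1.04 and 0.919 in GapNC and 1.45, 1.62 and 1.66 in GapC9. EIF4A2 thus lay near the joined entry of EIF4A1 in GapNC and above it in every GapC9 library.

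Of the scaffold genes, EIF4G3 fell while the others had fold changes above 0. EIF4G1, the main scaffold that joins the cap-binding protein, the helicase and eIF3, was at 111, 101 and 92.1 FPKM in GapNC and at 122, 109.8 and 106 FPKM in GapC9 (log2 fold change 0.15, SE 0.11, adjusted p = 0.418, limma). EIF4G2 encodes a related protein without the cap-binding-protein site, known for cap-independent initiation. It was at 108, 115 and 116 FPKM and then at 136, 142 and 131 FPKM, with no overlap (0.27, SE 0.08, adjusted p = 0.0954, limma). EIF4G3, a paralog of EIF4G1, spans bases 20806292 to 21176888 of chromosome 1 (minus strand), in a much longer gene than the other two. Its level was 5.65, 5.44 and 5.11 FPKM in GapNC replicates 1, 2 and 3 and 3.19, 2.74 and 3.17 FPKM in GapC9 replicates 1, 2 and 3. Every GapC9 library lay below every GapNC library, with a log2 fold change of −0.81 (SE 0.11, adjusted p = 0.0238, limma). Relative to EIF4G1 it was at 0.0507, 0.0540 and 0.0555 in GapNC and at 0.0262, 0.0249 and 0.0299 in GapC9. EIF4G3 is thus the minor paralog in all libraries, by level per length.

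The cap-binding proteins did not differ detectably. EIF4E, the cap-binding protein itself, in an entry joined with the pseudogene TBCAP3, was at 5.33, 5.66 and 6.34 FPKM in GapNC and at 5.94, 5.95 and 6.68 FPKM in GapC9 (log2 fold change 0.10, 95% interval −0.18 to 0.38). EIF4E2, a homolog known for repressing translation, was at 5.67, 6.89 and 4.86 FPKM and then at 5.81, 6.68 and 6.35 FPKM (0.12, 95% interval −0.26 to 0.50). EIF4E3, a further homolog, was at 0.189, 0.423 and 0.493 FPKM and then at 0.384, 0.306 and 0.444 FPKM, overlapping in the same way. EIF4E1B, known from oocytes, was at 0.0124, 0.0130 and 0 FPKM and then at 0.0132, 0 and 0.00411 FPKM, and was not tested. EIF4ENIF1, the protein that takes eIF4E into the nucleus and to processing bodies, lay between 5.98 and 6.65 FPKM. The helicase cofactor EIF4B was at 127, 130.3 and 111 FPKM and then at 132, 133 and 139 FPKM (0.14, SE 0.09, adjusted p = 0.398, limma). EIF4H, the other cofactor, had a log2 fold change of 0.11 (95% interval −0.07 to 0.29) and likewise did not overlap. In both genes the lowest GapC9 library lay just above the highest GapNC library.

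Of the late-acting factors, EIF5B rose. It encodes the GTPase that joins the subunits, on the plus strand of chromosome 2 from 99337353 to 99401326. Its values were 22.8, 25.6 and 25.2 FPKM in GapNC replicates 1, 2 and 3 and 37.6, 37.1 and 41.8 FPKM in GapC9 replicates 1, 2 and 3. The groups were far apart, with a log2 fold change of 0.66 (SE 0.10, adjusted p = 0.0260, limma). It overlaps REV1 and TXNDC9 on the opposite strand, which did not exceed 3.77 and 4.98 FPKM. EIF6, which keeps the large subunit from joining too early, overlapped between groups at 17.6 to 23.9 FPKM (−0.06, 95% interval −0.39 to 0.26), in an entry that also carries an antisense name.

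EIF5A encodes a hypusine-bearing factor that also helps elongation and was the most abundant member, at 289.6, 209 and 273 FPKM in GapNC and at 280.1, 238 and 260.0 FPKM in GapC9 (log2 fold change 0.02, 95% interval −0.33 to 0.38). Its paralog EIF5A2 had the largest fold change of any member and the widest interval. It was at 3.12, 4.37 and 0.819 FPKM in GapNC and at 3.79, 5.21 and 5.67 FPKM in GapC9 (1.06, SE 0.59, adjusted p = 0.318, limma). GapNC replicate 3 stood apart, and the log2 fold change ranged from 0.37 without it to 1.52 without GapNC replicate 2, where EIF5A2 met the study's fold threshold. EIF5AL1, an intronless EIF5A-like copy, was at 1.56, 1.43 and 1.51 FPKM and then at 1.48, 1.58 and 1.82 FPKM. Reads of EIF5A could reach such copies, so its level is uncertain. Among the alternative initiator tRNA carriers, EIF2D, also known for recycling ribosomes, was at 7.76, 6.98 and 6.74 FPKM and then at 9.14, 8.87 and 8.29 FPKM. Its groups did not overlap (0.29, SE 0.11, adjusted p = 0.157, limma). EIF2A, whose product can also bind initiator tRNA, overlapped (−0.11, 95% interval −0.47 to 0.26).

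**Figure D2:**
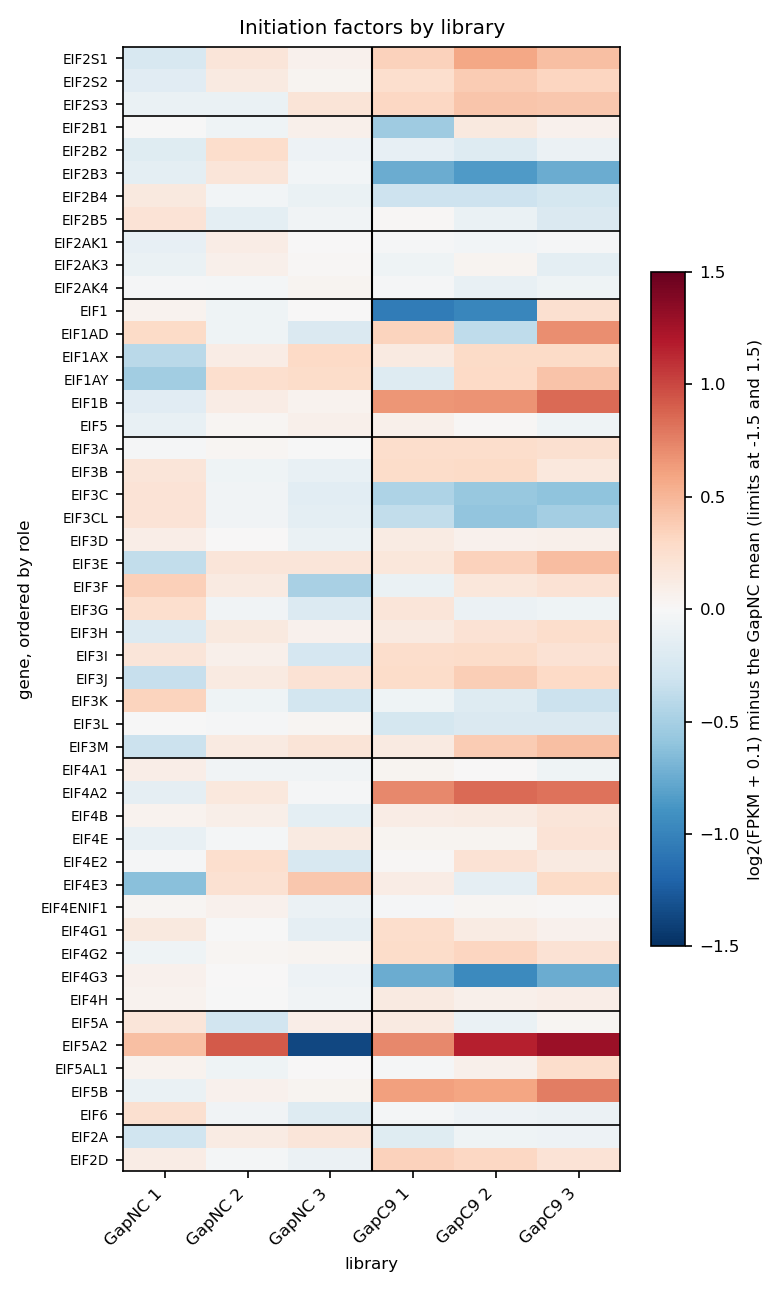
Log2(FPKM + 0.1) minus the GapNC mean (color, limits at −1.5 and 1.5) for the 49 members tested in rows, ordered by role, and the 6 libraries in columns. EIF4A2, EIF1B and EIF5B are red and EIF4G3 and EIF2B3 blue in all 3 GapC9 columns, whereas EIF1 is blue in GapC9 replicates 1 and 2 only and EIF5A2 is deep blue in GapNC replicate 3.

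As a share of each library, the 50 members made up 1.24%, 1.29% and 1.31% of the summed FPKM for GapNC replicates 1, 2 and 3 and 1.41%, 1.46% and 1.49% for the GapC9 libraries. All 3 GapC9 shares were above all GapNC shares. The members were lower in GC content than the entries tested, with medians of 45.5% and 49.0%. GC content was that of the longest annotated transcript of an entry, which may not be the form expressed. The near-identical EIF3C and EIF3CL thus had 47.9% and 54.5%. Their log2 fold changes were corrected unequally, from −0.55 and −0.49 to −0.48 and −0.31. In an entry that carries several names the longest transcript may be of another gene. EIF6, in such an entry, was given 35.5% GC, and its log2 fold change went from −0.06 to −0.24. Across the 49 members, which share the same libraries, Spearman's correlation of GC content with the log2 fold change was −0.467 before and −0.0104 after the GC correction. EIF4A2 (38.7% GC) and EIF5B (38.6%) thus sat at the GC-poor end where fold changes ran high. Their corrected log2 fold changes were 0.68 and 0.54, beside 0.71 for EIF1B, −0.80 for EIF4G3 and −0.70 for EIF2B3. Beyond the eIF2 and eIF3 genes named above, EIF4G1 and EIF4H also passed as higher after the correction, which gave 11 members higher and 4 lower. Over all entries it gave 1141 higher and 1236 lower, where the uncorrected test gave 303 and 817 and median scaling gave 361 and 549.

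The target of the CASC9 GapmeR, 16 bases long, was searched in the annotated spliced transcripts of the members. No member held it with up to 2 mismatches, and EIF3L, EIF4E and EIF4E2 held it with 3. This is 3 of 50 members (6%), beside 1.14% of all annotated genes. For the control GapmeR it was EIF4E3 alone, beside 1.11% of all genes. At up to 4 mismatches, 34% of members held the target of the CASC9 GapmeR and 28% that of the control. Of all annotated genes, 10.1% and 9.59% did, so the members exceeded all genes for both oligonucleotides. The fewest mismatches were taken over all transcripts of a gene, and all 50 members are protein-coding. The shares were not matched for transcript length or gene type, so they do not show an excess of sites particular to the members. None of the 5 called genes came closer than 4 mismatches to the CASC9 GapmeR, and introns were not searched.

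Further genes that act on initiation, elongation and termination were followed as a list of 52 symbols, of which 51 were tested in 53 entries. At the adjusted threshold 1 was higher and 4 were lower, 9.43% of the entries on the list beside 6.99% of all. The median log2 fold change was 0.01. PPP1R15A (GADD34), the phosphatase subunit that reverses eIF2α phosphorylation, was at 19.1, 19.5 and 18.3 FPKM in GapNC replicates 1, 2 and 3 and at 39.5, 34.7 and 28.1 FPKM in GapC9 replicates 1, 2 and 3 (log2 fold change 0.83, SE 0.14, adjusted p = 0.0314, limma). It is the related gene that rose, with every GapC9 library above every GapNC library, but its adjusted p was above 0.05 when any 1 library was left out (0.0635 to 0.125, limma) and when all entries were tested without a filter (0.0538, limma). MTOR, the kinase that controls the eIF4E-binding proteins, was at 13.0, 11.1 and 11.8 FPKM and then at 7.33, 7.18 and 7.13 FPKM (−0.72, SE 0.10, adjusted p = 0.0239, limma). Its partner RPTOR, which brings those substrates to the kinase, was at 8.53, 9.69 and 8.53 FPKM and then at 3.41, 3.10 and 4.09 FPKM (−1.32, SE 0.14, adjusted p = 0.0159, limma). Both genes were lower in all 3 GapC9 libraries. DHPS, which makes the hypusine precursor on eIF5A, was at 16.2, 12.2 and 10.1 FPKM and then at 5.59, 5.45 and 5.32 FPKM (−1.19, SE 0.18, adjusted p = 0.0269, limma). GIGYF2, which works with EIF4E2 in repression, was at 5.16, 5.24 and 5.59 FPKM and then at 3.15, 2.89 and 2.83 FPKM (−0.83, SE 0.10, adjusted p = 0.0190, limma). RPTOR and DHPS also met the study's 2-fold threshold. These 4 lower genes kept an adjusted p under 0.05 in 1 or 2 of the 6 fits with a library left out.

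The genes of the eIF4E-binding proteins, which hold eIF4E away from its scaffold, were irregular. EIF4EBP1 was at 107, 45.4 and 37.8 FPKM in GapNC and at 58.2, 47.4 and 28.2 FPKM in GapC9, with overlap (log2 fold change −0.41, SE 0.46, adjusted p = 0.612, limma). EIF4EBP2 was at 10.6, 0.557 and 0.671 FPKM and then at 1.20, 19.4 and 20.6 FPKM (2.20, SE 1.51, adjusted p = 0.411, limma). In each group 1 library of EIF4EBP2 stood apart from the other two, on the high side in GapNC and on the low side in GapC9. The entry of EIF4EBP3 is joined with ANKHD1 and cannot be read as EIF4EBP3 alone, at 7.62, 7.91 and 8.05 FPKM and then at 8.98, 9.21 and 10.2 FPKM.

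Neighbors and copies limit some of these levels. The entries of 5 members carry the names of several genes, and 35 members overlap a gene on the opposite strand, while the use of strand is not given in the sources. Of 31 initiation factor pseudogenes in the table, 26 were listed at 0 in at least 1 library and 9 had a mean of at least 1 FPKM. EIF4HP1 was at 40.3 to 53.6 FPKM in all libraries, near the level of many members. EIF4EP2 was at 27.8, 36.2 and 0 FPKM in GapNC and at 0, 0 and 33.3 FPKM in GapC9. Its parent EIF4E, in contrast, stayed between 5.33 and 6.68 FPKM in all 6 libraries.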

How the data were processed

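Poly(A) RNA of 6 HCT-116 libraries, 3 GapNC and 3 GapC9, was sequenced. Groups came from the sample records, and the 6 value columns were matched by name, leaving 0 unused. HISAT alignments were turned into FPKM by the authors with StringTie and deposited in 1 table. These FPKM values are scaled to transcript length and to mapped fragments, so a rise in abundant RNAs lowers all other values. The submitters' processing notes list HISAT2 2.0, StringTie 1.3.0 and Bowtie 0.12.2, and a mouse genome build beside these human cells, so the build behind the table is uncertain. Read counts are needed for the edgeR test that the authors used, and it was not repeated on these values. The strand setting is not given in the sources used here.

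Here limma 3.58.1 (R 4.3.3, lmFit and eBayes with trend) was fitted to log2(FPKM + 0.1) of the 16028 entries with a mean of at least 0.1 FPKM, fitting the 6 libraries together, and p-values were adjusted over all of these entries (Benjamini-Hochberg). The added 0.1 shrinks the fold change of low genes. No counting error can be given without counts, and entries near 0.1 FPKM are the least precise. SDs are over the 3 FPKM values of a group, and SEs come from limma. GC content and gene positions came from GENCODE v29 of GRCh38, matched by the Ensembl identifiers in the table (GC for 99.3% of entries tested), and tables and figures from Python 3.11.15. The GC content of an entry is that of its longest annotated transcript. The GC correction subtracts, in each library, a lowess curve (span 0.3) of the deviations from the gene means on GC content.

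All members could be named, with values per library for those at an unadjusted p under 0.05, those listed at 0 in some libraries, the 5 of highest mean and the paralog sets, and other irregular members were added after their values were seen. Related genes are named only where called, beside the eIF4E-binding proteins. The members, lists and the GC correction were chosen with earlier results of these data known. Alternatives were other pseudocounts (1 and 0.01), filters (1 FPKM, none, no entry listed at 0), quantile normalization, median scaling, robust variances, limma without the trend, the fitted fold change, a replicate block, the GC correction and each library left out. On simulated data of 14892 genes the test recovered 43 of 100 genes changed by 1 on the log2 scale and 84 of 100 changed by 2, with 6 unchanged genes called.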

Additional observations from a re-analysis of the deposited data

How the results depend on the processing

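The 5 members called at the adjusted threshold stayed at 4 to 6 calls under the other pseudocounts, filters, scalings and limma settings. EIF3C was added where only entries of at least 1 FPKM or entries never listed at 0 were tested, and EIF2B3 was lost under quantile normalization. The count became 15 after the GC correction, 0 with the replicate block, 0 with both, and 0 to 5 with 1 library left out, where all entries gave 2377, 0, 1 and 32 to 810 calls in place of 1120. For the related genes, 5 calls became 14 after the GC correction, 0 with the block, 0 with both, 0 to 5 with 1 library left out, 7 (1 higher) with the filter at 1 FPKM or on entries listed at 0, and 4 with no filter, where PPP1R15A was lost. No member passed the 2-fold rule except in 0 to 1 member per fit with 1 library left out, which were EIF5A2 without GapNC replicate 2 and EIF1 without GapC9 replicate 3. The median member log2 fold change, 0.10, was 0.19 after median scaling, 0.14 after quantile normalization, 0.15 after the GC correction with or without the block, and 0.046 to 0.12 with 1 library left out. Of the 49 members tested, 16 changed sign in at least 1 alternative, but none of the 15 at an unadjusted p under 0.05 did. Beyond the settings named, the causes were not tested.

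GapNC and GapC9 libraries share replicate numbers, but the deviations of same-numbered libraries from their group means correlated at 0.113, 0.0362 and 0.0332, and not every library correlated best with its own number, so the numbers were not taken as pairs. With the number as a block, limma left 0 members at the adjusted threshold (adjusted p of the 5 called genes 0.0608 to 0.0686), 0 entries in the whole table, and 11 higher and 6 lower members at an unadjusted p under 0.05. With 3 libraries a group, changes of 2-fold were recovered in simulation for 43 of 100 genes. These were drawn from entries of all levels past the filter that were never listed at 0, whereas 34 members averaged at least 10 FPKM. The simulated noise was independent between libraries and held no GC effect, unlike these libraries. The simulation therefore does not measure how many smaller differences were missed among the members.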
